A study of Triticum aestivum with 4 samples.

Results

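The CHG regions upstream of genes are those listed regions of CHG methylation that the authors' annotation placed upstream of the nearest gene. They are 335 of the 1745 regions in the CHG list and of 3119 regions in the lists of all sequence contexts. Membership rests on position alone, so no methylation value was used to pick them from the list. Earlier results of these data were known when this set was chosen.

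CHG is a cytosine followed by A, C or T and then G, CHH is a cytosine with no G at either of the next positions, and CpG is a cytosine directly before a G. In plants, methylation of CHG sites is kept up by chromomethylases, which in Arabidopsis and maize are recruited by a methyl mark on histone H3, and it is typical of transposons and silent chromatin. Sequence just upstream of a gene holds much of its promoter, where dense methylation often accompanies low expression. Bread wheat is hexaploid, and its A, B and D subgenomes each carry a related copy of most genes.

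The ultrasound group grew from 100 seeds of the winter wheat line SE15, sonicated before germination in open dishes 4 cm from the sound head, at 30 kHz and 70 W for 5 minutes. The control group grew from 100 seeds that were not sonicated. Both groups shared a seed water content of 13.6%, germination at 20 °C in the dark and a time point of 7 days, and the tissue is given as seedling, so no single cell type is measured. Levels were analysed in 1 ultrasound library and 1 control library, of 2 labelled per group, as percent methylation per region. The design text speaks of 3 biological samples per group and does not tie them to libraries. No label spells out the letter that heads the control column, which was assigned by elimination. If this assignment is mistaken, so is each control level below. A region was listed only if it passed the authors' selection, so the libraries differ at nearly every region by choice, and what can be described is the direction and size of the difference. Every level is a single measurement without a replicate check, the read depth behind it is unknown, and no test between the groups could be run. Ranges in brackets after shares and medians are 95% intervals over regions; they cover counting error only, not the spread between plants.

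The members lay 5 to 2984 bp from their gene (median 1033 bp) and were 570 to 7324 bp long (median 1380 bp). They belonged to 328 genes, of which 7 had 2 members each. All 21 chromosomes held between 6 and 34 members, and unplaced sequence held 10. For 292 members both libraries had a level. The ultrasound level was missing for 25 and the control level for 36, with both missing for 18. Long members were more often without a level. Of the 28 members over 3000 bp, 20 lacked at least 1 level (71.4%), against 23 of the 307 members up to 3000 bp (7.49%).

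Upstream CHG methylation was lower in the ultrasound library at most of these regions. Of the 292 members, 214 were lower after ultrasound, or 73.3% (exact binomial interval 67.8 to 78.3), and 78 were higher. Across all 1557 CHG regions with levels, 78.2% were lower and 21.8% higher. The median upstream level was 17.4% in the ultrasound library and 22.1% in the control library. The median of the differences, each taken as ultrasound minus control, was -8.79 percentage points (order-statistic interval -9.56 to -7.29), close to the -8.87 points of all CHG regions. The mean difference, -4.11 points, was smaller in size than the median.

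Among the upstream members the decreases were many and moderate, the increases fewer and larger. Members that were lower had a median level of 12.2% after ultrasound and 24.7% in the control. Members that were higher had a median level of 32.1% after ultrasound and 12.8% in the control. The median size of a decrease was 11.3 points and that of an increase 19.5 points. A level under 5% was given for 64 of the 214 lower members after ultrasound and for 7 of them in the control. Of the 78 higher members, 19 were under 5% in the control and 1 after ultrasound. Members were sorted by direction first. Which library holds more of the low levels in each set therefore follows from the sorting. Neither these counts nor the sizes by direction were computed over all CHG regions. With bounds set after the levels were seen, 6 members were below 5% after ultrasound and at 20% or more in the control, and 6 were at 20% or more after ultrasound and below 5% in the control.

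**Figure D1:**
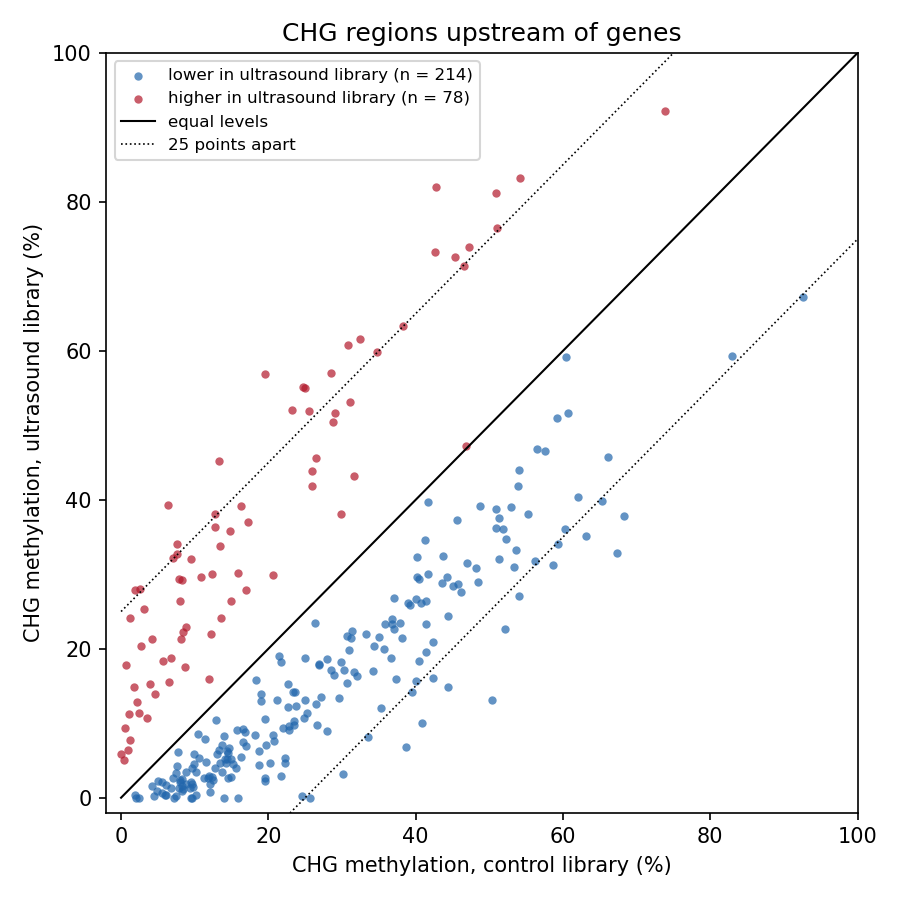
CHG methylation of each of the 292 upstream regions with both levels, control library on the x axis and ultrasound library on the y axis, in percent. Blue points (214) lie below the line of equal levels and red points (78) above it; few points lie near that line, and the list holds only regions that passed the authors' selection.

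At least 10 points separated the libraries at 184 members. Of these, 121 were lower, or 41.4% of members with levels against 43.8% of all CHG regions, and 63 were higher, 21.6% against 16.6%. At the 25-point size 18 members were lower (6.16%, all CHG regions 5.39%) and 25 higher (8.56%, all CHG regions 4.37%). Of these 43 members 41.9% were lower (27.0 to 57.9), an interval that includes an even split. A decrease of 25 points is possible only where the control level is at least that high, and an increase only where the ultrasound level is. The part of these limits in the split was not tested.

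Large increases made up a larger share upstream of genes than within them. The level was at least 25 points higher after ultrasound at 8.56% of the upstream regions and 2.70% of the 925 regions that overlapped their gene, a difference of 5.86 points with a Newcombe interval of 2.66 to 9.79. Among downstream regions it was 5.29% of 340, and the interval of upstream minus downstream, -0.896 to 7.64, included 0. Decreases of at least 25 points were 6.16% upstream and 4.76% in overlapping regions, and the interval of that difference also included 0 (-1.52 to 5.04).

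Decreases of any size were less common upstream, at 73.3% against 80.6% of overlapping regions, a difference of -7.36 points (-13.4 to -1.69). With regions within 10 kb merged to 1 locus that difference was -5.81 points, and its interval, -12.03 to 0.0741, included 0. Against downstream regions, 75.9% of which were lower, the difference was -2.59 points (-9.64 to 4.40). Median levels differed between these sets as well. They were 17.4% after ultrasound and 22.1% in the control upstream, and 13.1% after ultrasound and 19.4% in the control in overlapping regions. The part of those levels in the differences was not tested.

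**Figure D2:**
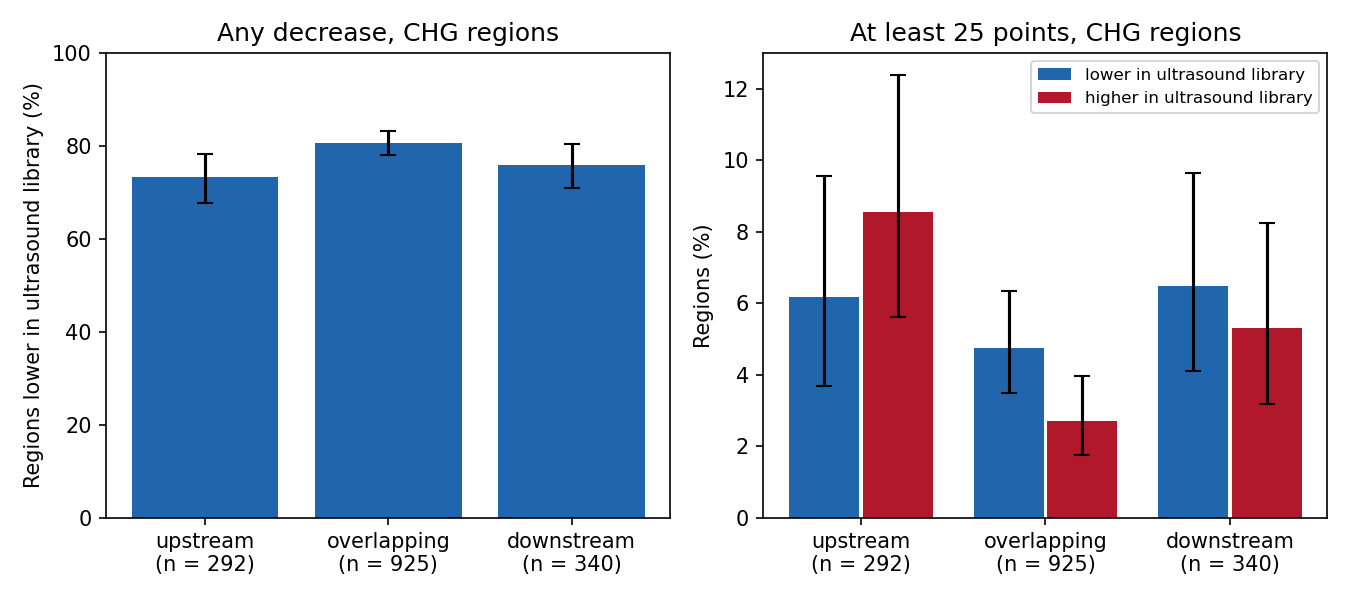
Share of CHG regions, in percent, that were lower in the ultrasound library (left) and that were at least 25 points lower (blue) or higher (red) there (right), by place relative to the gene. Bars are shares of regions with both levels and error bars are exact binomial intervals over regions; the red bar is tallest upstream, at 8.56%, and lowest for overlapping regions, at 2.70%.

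Beside the other contexts, upstream CHG regions stood between CpG and CHH in direction. Of upstream CpG regions 65.2% of 112 were lower, and of upstream CHH regions 80.8% of 224. The intervals of CHG minus CpG, -2.21 to 18.9 points, and of CHG minus CHH, -14.9 to 0.116 points, both included 0. The median CpG level was 38.3% after ultrasound and 55.1% in the control, and the median CHH level 1.01% after ultrasound and 12.1% in the control.

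The largest decrease among the upstream CHG regions was that of a potassium transporter gene, TraesCS6A02G063000, of a family that carries potassium across membranes. Its region (6A, 33587996 to 33590561, 1960 bp from the gene; coordinates are those of the deposited list, whose build is not given in the sources used here) was at 13.2% in the ultrasound library and 50.3% in the control library. Next came TraesCS4A02G125600, without a description, at 32.9% after ultrasound and 67.3% in the control (4A, 162080317 to 162081722). The sucrose synthase gene TraesCS7B02G063400, whose enzyme splits sucrose for use in growing tissue, was also among the 10 largest decreases, at 31.3% after ultrasound and 58.7% in the control. The other 7 carried no description and lay between -31.9 and -27.0 points. They were TraesCS7A02G034900, TraesCS7B02G487200, TraesCS2B02G594600, TraesCS7D02G095800, TraesCS1A02G317000, TraesCS2D02G357300 and TraesCS5B02G163500.

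The largest increase among them lay 1544 bp upstream of TraesCS1B02G159700, which carries no description, at 82.0% in the ultrasound library and 42.8% in the control library (1B, 271908618 to 271909323). TraesCS4A02G078000 followed, at 56.9% after ultrasound and 19.5% in the control (4A, 77446788 to 77447886). Among the 10 largest increases a single gene was described, the pseudouridine synthase gene TraesCS5B02G444700, whose product modifies uridines in RNA. Its region, 803 bp upstream, was at 81.2% after ultrasound and 51.0% in the control (5B, 617143387 to 617144124). The other 7, namely TraesCS5A02G335700, TraesCS5D02G566600, TraesCS4D02G257800, TraesCS3A02G536900, TraesCS2A02G276700, TraesCS5D02G310700 and TraesCS1B02G333600, were 29.1 to 32.9 points higher.

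Few members were heavily methylated. Of the 8 members whose mean over the libraries was 60% or more, 2 were lower and 6 higher after ultrasound, or 25% lower (3.19 to 65.1), an interval that includes an even split. Of all 25 CHG regions at that mean level 36% were lower (17.97 to 57.5). The median level of the 8 was 78.9% in the ultrasound library and 52.6% in the control library. In the classes of mean level between 0 and 60%, 69.1% to 83.1% of members were lower, with the highest share, 64 of 77, in the class under 10%.

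Members close to their gene were more often lower than those at middle distance. Of 74 members under 500 bp from the gene, 62 were lower, or 83.8% (73.4 to 91.3). At 500 to 1500 bp 84 of 126 were lower, 66.7% (57.7 to 74.8), and beyond 1500 bp 68 of 92, 73.9% (63.7 to 82.5). The nearest class exceeded the middle one by 17.1 points (3.91 to 28.8), while its difference from the farthest, 9.87 points (-3.62 to 22.6), and that of the middle from the farthest, -7.25 points (-19.7 to 5.80), had intervals that included 0. The contrast depended on the bounds. With bounds of 1000 and 2000 bp, the nearest class exceeded the middle one by 2.96 points (-8.80 to 15.2).

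Levels near the gene were also lower. The median was 9.12% after ultrasound and 16.9% in the control under 500 bp. It was 21.5% after ultrasound and 23.5% in the control at 500 to 1500 bp, and 19.2% after ultrasound and 24.96% in the control beyond. Median differences were -9.19, -7.16 and -9.08 points from the nearest to the farthest class. Increases of at least 25 points were found at 3 members in the nearest class, or 4.05% (0.844 to 11.4). There were 15 in the middle class, 11.9% (6.82 to 18.9), and 7 in the farthest, 7.61% (3.11 to 15.1). These intervals overlapped, and the share over all CHG regions was 4.37%. The nearest class exceeded the middle one in share lower by 24.2 points (1.97 to 39.9) among members with a mean level of 20% or more, and by 11.5 points (-6.33 to 28.1) among those under 20%.

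In windows of 250 bp the share lower was 89.2% of 37 members in the window next to the gene, 78.4% of 37 in the following one and 75% of 36 in the one after. It was 57.9% of 38 members between 750 and 1000 bp, and beyond 1500 bp it varied from 46.2% to 85.7% with no more than 21 members per window. The nearest class was above the middle one in each subgenome. The shares were 88.0% (68.8 to 97.5) and 70.6% (52.5 to 84.9) in A and 80.0% (56.3 to 94.3) and 69.7% (51.3 to 84.4) in B. In D they were 84.6% (65.1 to 95.6) and 65.5% (51.4 to 77.8), on 20 to 55 members each across the subgenomes. The intervals overlapped in each subgenome, and these are parts of the same contrast.

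Other sets of listed regions were compared over the same distances. CHG regions downstream of genes were lower at 85.1% of 114 under 500 bp and 73.6% of 129 at 500 to 1500 bp, a difference of 11.4 points (0.655 to 21.8). Beyond 1500 bp they were lower at 68.0% of 97, and the nearest class exceeded this by 17.0 points (5.00 to 28.9). Upstream CpG regions were lower at 86.4% of 22 under 500 bp and 65% of 40 at 500 to 1500 bp, with an interval of the difference that included 0 (-4.31 to 41.2). Beyond 1500 bp they were lower at 56.0% of 50, and the nearest class exceeded this by 30.4 points (4.89 to 48.6). In both of these sets the share was lowest in the farthest class, while in upstream CHG regions it was lowest in the middle one. In each case the intervals of the middle and farthest shares overlapped. With bounds of 1000 and 2000 bp the upstream CHG shares were 75%, 72.0% and 70.6% from the nearest to the farthest class. Upstream CHH regions were lower at 82.7%, 82.9% and 76.7% from the nearest to the farthest class, and the intervals of the nearest minus the middle, -13.2 to 12.7, and minus the farthest, -7.92 to 19.7, included 0.

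**Figure D3:**
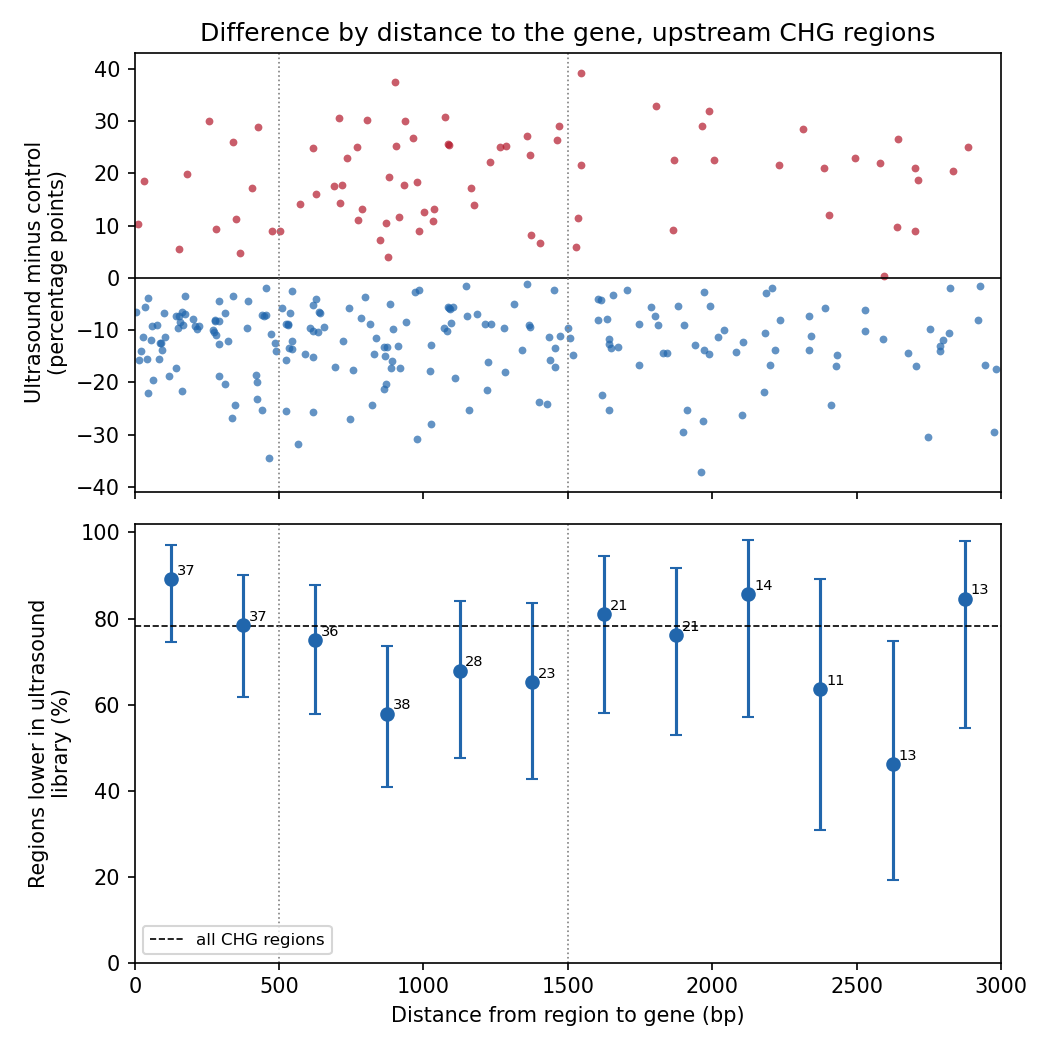
Top, the difference in CHG level, ultrasound minus control in percentage points, of each of the 292 upstream regions against its distance from the gene in bp. Bottom, the share of regions lower in the ultrasound library in windows of 250 bp, with exact binomial intervals and the number of regions beside each point; the share is 89.2% in the window next to the gene and 57.9% between 750 and 1000 bp, and the dashed line marks all CHG regions, 78.2%.

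The 5 members nearest to their gene covered a wide range of levels. A region 5 bp from TraesCS2D02G105400 was at 1.29% after ultrasound and 7.84% in the control. The region 12 bp from the gene for protein GRIP (TraesCS2A02G234700), a Golgi protein in Arabidopsis, was at 11.2% after ultrasound and 1.02% in the control, and was the single higher one of the 5. The regions of TraesCS1D02G334700 at 15 bp and TraesCS5D02G220900 at 22 bp were at 20.0% and 39.0% after ultrasound against 35.7% and 53.0% in the control. A glutamate receptor gene (TraesCS5B02G217700), of a family of cation channels, had a region 27 bp upstream at 17.2% after ultrasound and 28.5% in the control.

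Differences between the subgenomes lay within counting error. The share lower was 76.7% of 90 members in A (66.6 to 84.9), 75.3% of 81 in B (64.5 to 84.2) and 71.1% of 114 in D (61.8 to 79.2). The differences were 1.36 points for A minus B (-12.1 to 14.99), 5.61 for A minus D (-7.34 to 18.0) and 4.26 for B minus D (-9.28 to 17.1). Median differences were -9.19, -8.92 and -8.25 points in A, B and D. On 20 of the 21 chromosomes more members were lower than higher, and on 1B there were 3 of each. Unplaced sequence stood at 3 lower and 4 higher of 7. By the strand of the gene, 76.8% of 142 on the minus strand and 70.0% of 150 on the plus strand were lower, and the interval of the difference, -3.87 to 17.2, included 0.

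A description was given for the genes of 53 members, 47 of them with both levels. Of those, 37 were lower and 10 higher, 78.7% lower (64.3 to 89.3), with a median difference of -8.23 points. The background over all CHG regions is the 78.2% given above. Differences of 10 points or more were seen at 25 of the 47, of which 17 were lower. Word lists for 12 groups of gene function placed 33 members, at 1 to 6 per group. The groups are described by counts, medians and ranges, without a test.

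Transport and membrane genes were lower at all 4 members with levels, from -37.1 to -9.24 points. In all of CHG 12 of 14 regions of this list were lower, these 4 included. The median was -16.7 points upstream and -6.62 points over the 14. They were the potassium transporter, the glutamate receptor, an auxin efflux carrier and a phospholipase. The carrier (TraesCS7B02G398100), which moves auxin out of cells, had a region 45 bp from the gene at 18.4% after ultrasound and 40.4% in the control (7B, 664110724 to 664111876). The phospholipase gene (TraesCS1A02G228300), for an enzyme that cleaves membrane lipids, was at 18.7% after ultrasound and 27.9% in the control. A SWEET sugar transporter gene (TraesCS2B02G055800) had only an ultrasound level, 8.23%.

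Hormone genes were lower at both members, and at 4 of 6 CHG regions of the list. Beside the auxin carrier, these comprised 9-cis-epoxycarotenoid dioxygenase 2A (TraesCS5A02G374000), whose family makes the precursor of abscisic acid from carotenoids. Its region was at 59.3% in the ultrasound library and 83.0% in the control library. The words missed 2 further hormone genes. A putative indole-3-acetic acid-amido synthetase GH3.9 gene (TraesCS2A02G115000), whose family joins auxin to amino acids in Arabidopsis, was at 17.1% after ultrasound and 30.2% in the control. SNE (TraesCS4B02G263400), an F-box protein of gibberellin signalling in Arabidopsis, was at 4.70% after ultrasound and 22.2% in the control. Of the seed reserve list the sucrose synthase gene was the one upstream member.

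All 5 members with levels in the kinase and signalling list were lower, with a median of -5.66 points. Diacylglycerol kinase (TraesCS1A02G235100), which makes the signalling lipid phosphatidic acid, was at 39.9% after ultrasound and 65.3% in the control (1A, 415585903 to 415587513). A serine/threonine-protein kinase gene (TraesCS3A02G323400) was at 0.375% after ultrasound and 6.03% in the control. The word kinase also took in a pair of ribokinase genes, which encode a sugar enzyme. These were at 0% after ultrasound and 2.04% in the control for TraesCS3A02G242400, and at 0.346% after ultrasound and 5.97% in the control for TraesCS3D02G242400. The fifth was the glutamate receptor, and a calcium-binding EF-hand gene (TraesCS5A02G262200) had only an ultrasound level, 9.02%. In all of CHG 14 of 15 regions of this list were lower.

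Cell wall genes were lower at 4 of 5 members, and at 13 of 16 CHG regions of the list. The exception was a xyloglucan endotransglucosylase/hydrolase gene (TraesCS3B02G108800), whose enzyme cuts and rejoins wall xyloglucan, at 25.3% after ultrasound and 3.06% in the control. An endoglucanase gene (TraesCS7A02G144700), for an enzyme that hydrolyses glucans, was at 2.65% after ultrasound and 14.5% in the control, 56 bp from the gene. A laccase (TraesCS4A02G114700), a hexosyltransferase (TraesCS7B02G134900) and a glycosyltransferase gene (TraesCS7D02G430700) differed by -6.80, -6.64 and -5.71 points.

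The oxidative stress list had 1 lower and 2 higher of 3 members with levels, and 17 of 24 lower in all of CHG. The 2 higher ones were peroxidase genes, a grouping made after the values were seen, and in all of CHG 8 of 11 regions described as peroxidase were lower. Plant peroxidases oxidise phenolics and other substrates with hydrogen peroxide. TraesCS3D02G185000 was at 22.2% after ultrasound and 8.42% in the control, TraesCS3D02G305300 was at 15.9% after ultrasound and 11.97% in the control, and TraesCS5A02G516200 had no level. The list also held a fatty acyl-CoA reductase gene (TraesCS3D02G012100) without levels and cytochrome c oxidase subunit 1 (TraesCS3A02G080400), matched by the word oxidase and part of the respiratory chain, at 46.8% after ultrasound and 56.5% in the control.

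All 6 members of the photosynthesis and organelle energy list were lower, between -16.9 and -8.16 points, as were 36 of 39 in all of CHG. ATP synthase subunit c (TraesCS5D02G196700), which forms the rotor ring, was at 28.8% after ultrasound and 45.7% in the control. Photosystem II reaction center protein Z (TraesCS1D02G180400) was at 21.7% after ultrasound and 30.7% in the control, and ATP synthase subunit alpha (TraesCS5D02G458900), part of the catalytic head, at 2.90% after ultrasound and 11.97% in the control. Further members were the cytochrome oxidase subunit and the genes of chloroplast ribosomal protein S14 (TraesCS2B02G487300) and a ribosome-recycling factor (TraesCS2D02G205900), at -9.70, -8.23 and -8.16 points. Protein PsbN (TraesCS4D02G043200), needed to assemble photosystem II in tobacco and missed by the words, was at 23.9% after ultrasound and 36.8% in the control. In all, 7 members had names shared with genes of the chloroplast or mitochondrial genome, and all 6 of these with levels were lower.

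Genes of autophagy, the recycling of cell contents, went both ways. Autophagy-related protein 7b (TraesCS3D02G231900), the activating enzyme of the conjugation system, had the second largest increase among described genes, with 57.0% after ultrasound and 28.5% in the control (3D, 318513966 to 318515824). Ubiquitin-like protein ATG12 (TraesCS6B02G366600), which is activated by such an enzyme, was at 0.238% after ultrasound and 7.48% in the control. These were set side by side after their values were seen. ATG12 belongs to the protein turnover list, whose other upstream member, a RING-type E3 ubiquitin transferase gene (TraesCS2D02G296700) of the family that tags proteins for breakdown, was at 25.9% after ultrasound and 39.2% in the control.

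Other described members that were at least 10 points lower had varied functions. The region of accelerated cell death 11 (TraesCS5A02G423200), a sphingolipid transfer protein that restrains cell death in Arabidopsis, was at 0.214% after ultrasound and 24.6% in the control (5A, 609195914 to 609199184). Nicotianamine aminotransferase 2 (TraesCS1A02G291200), an enzyme of the pathway to the iron-chelating phytosiderophores of grasses, was at 14.1% after ultrasound and 39.4% in the control. A peptidyl-prolyl cis-trans isomerase gene (TraesCS2B02G255000), which assists protein folding, was at 20.9% after ultrasound and 42.3% in the control. Kinesin-like protein KIN-10A (TraesCS6A02G379000), a microtubule motor, differed by -12.2 points. A second pseudouridine synthase gene (TraesCS5D02G448100) was at 6.25% after ultrasound and 18.8% in the control, opposite in direction to the one on 5B.

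Described members that were higher included a histone and a chaperone gene. Histone H3 (TraesCS1D02G364200), a core histone, was at 29.4% after ultrasound and 7.90% in the control. The class V heat shock protein gene TraesCS2B02G247300, of the small heat shock chaperones, was at 26.4% after ultrasound and 14.9% in the control. In all of CHG 7 of 10 regions of the list with this histone were lower. Of the list with the chaperone it was 1 of 2. A WAT1-related protein gene (TraesCS2A02G575700) was at 20.4% after ultrasound and 2.72% in the control. The GATA transcription factor gene TraesCS1D02G343000, the sole upstream member of its list, differed by -8.80 points. The remaining 7 described members with levels, in no group, lay between -9.13 and 4.67 points.

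**Figure D4:**
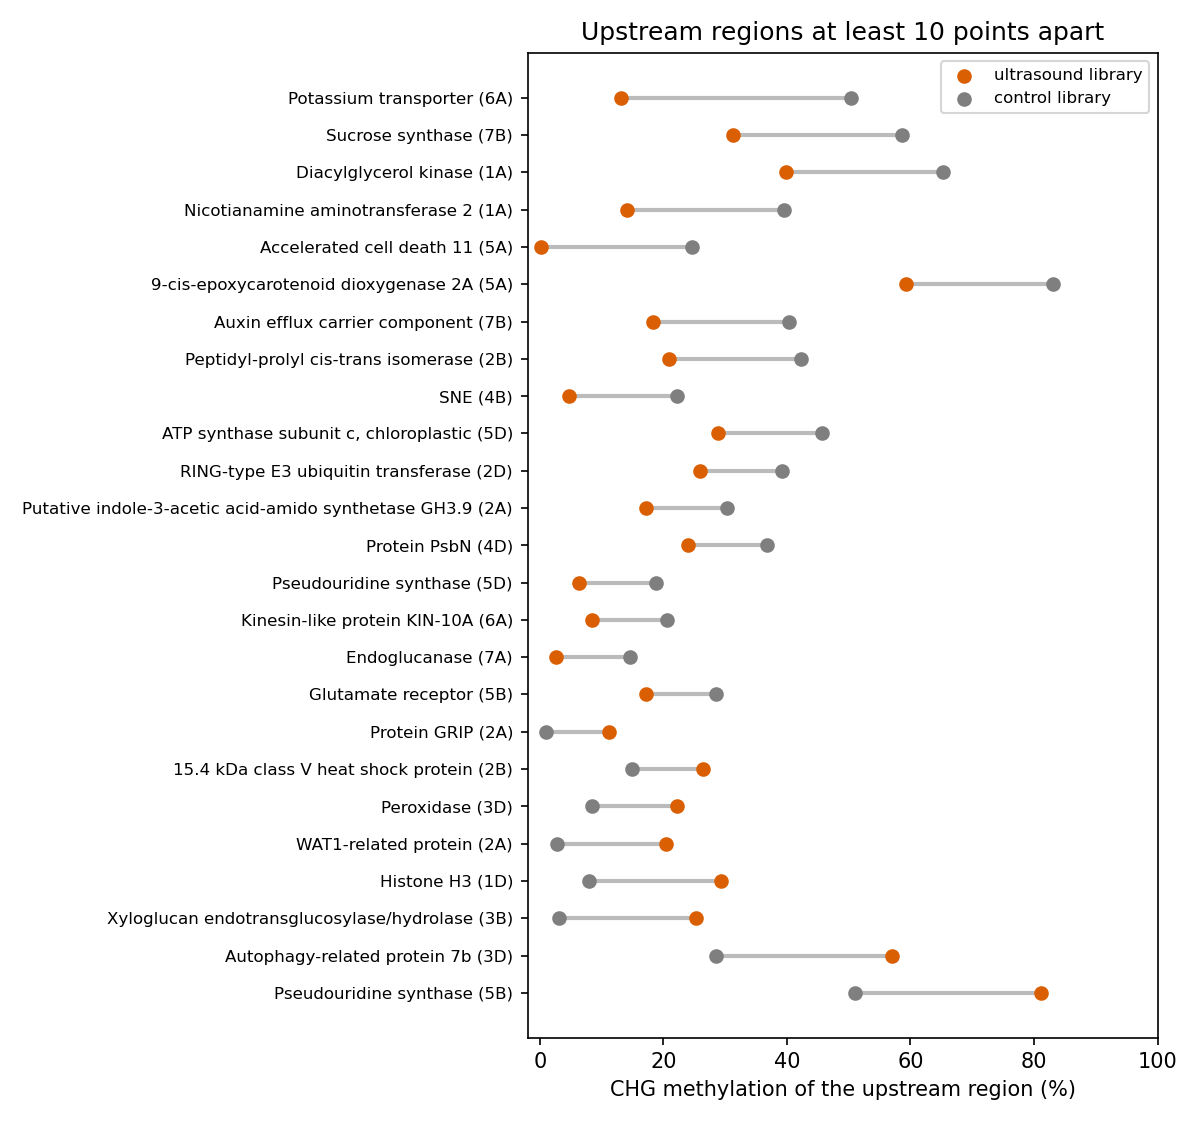
CHG methylation, in percent, of the upstream regions of described genes that differed by at least 10 points, ultrasound library in orange and control library in grey, with the chromosome in brackets. The 17 regions in the upper part were lower in the ultrasound library and the 8 in the lower part higher, from the potassium transporter at -37.1 points to the pseudouridine synthase on 5B at 30.2 points.

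Where a CpG region overlapped an upstream CHG region, both contexts differed in the same direction. CpG regions overlapped 32 of the 335 members (9.55%), and in all 29 pairs with levels the direction was shared, 25 lower and 4 higher in both (100% same, 88.1 to 100). The 29 pairs came from 28 members of 26 genes, so some regions were counted more than once. Both contexts were read in the same libraries and at overlapping positions, so the shared direction is no independent check. The CpG difference was larger than the CHG difference in 23 of the 25 pairs that were lower, with a median over all pairs of -24.7 points in CpG and -13.4 points in CHG. Differences were larger throughout the CpG list. The median size, in either direction, was 26.9 points for upstream CpG regions and 12.5 points for upstream CHG regions. CHH regions overlapped 4 members (1.19%), and of the 3 pairs with levels 2 were lower in both. At TraesCS2D02G034300 the contexts differed, with CHG at 27.9% after ultrasound and 17.0% in the control, and CHH at 0.475% after ultrasound and 15.4% in the control.

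Genes listed upstream in both CHG and CpG included some of the largest CHG differences. TraesCS4A02G125600 had 2 upstream CpG regions, at 57.6% and 34.2% after ultrasound against 97.5% and 100% in the control. TraesCS2A02G276700 was higher in both contexts, with CHG at 55.0% after ultrasound and 24.96% in the control, and CpG at 95.5% after ultrasound and 67.3% in the control. For the sucrose synthase gene, the diacylglycerol kinase gene and TraesCS6B02G247100 the control CpG level was missing, and the ultrasound CpG levels were 41.7%, 26.5% and 0.170%. In CHG, TraesCS6B02G247100 was at 8.20% after ultrasound and 33.6% in the control. The 4 overlapping pairs that were higher in both contexts lay at TraesCS2A02G276700, TraesCS5D02G273000, the xyloglucan enzyme gene and the peroxidase gene TraesCS3D02G185000.

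**Figure D5:**
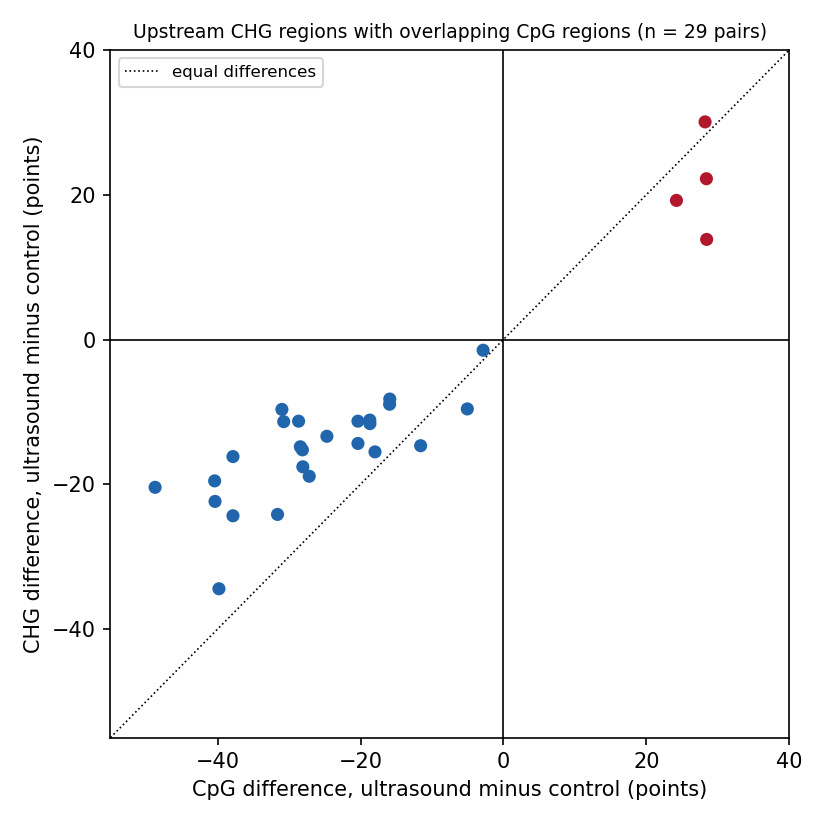
Difference in level, ultrasound minus control in percentage points, for the 29 pairs of an upstream CHG region (y axis) and a CpG region that overlaps it (x axis). All points lie at the lower left (25) or upper right (4), and 23 of the 25 lower pairs lie above the dotted line of equal differences, where the CpG decrease is the larger.

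A minority of the genes had another CHG region listed in or beyond them. For 29 of the 328 genes a region that overlapped or lay downstream of the gene was listed. Where such a pair had levels, 31 of 32 were lower in both. The 32 pairs came from 29 members of 26 genes, so some regions were counted more than once. In the whole list 78.2% were lower, but that is a share of single regions, not of pairs. At the nicotianamine aminotransferase gene the overlapping region was at 0.980% after ultrasound and 24.5% in the control. At TraesCS7B02G487200 the 2 upstream members were at 9.96% and 2.70% after ultrasound against 40.8% and 19.5% in the control, and the region overlapping the gene was at 7.70% after ultrasound and 28.4% in the control. The exception was TraesCS7D02G255100, with 47.2% after ultrasound and 46.8% in the control upstream, and 18.3% after ultrasound and 35.7% in the control within the gene.

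Some of these genes lay in stretches of neighbouring listed regions, here chains of at least 4 loci, whatever their context, no more than 10 kb apart. Such stretches held 22 members in 14 places, and 20 of the 21 with levels were lower, with medians of 18.8% after ultrasound and 36.8% in the control. The listed regions of any kind in these places were also mostly lower, from 17 of 17 on 2B to 4 of 6 on 7D. The direction is thus not particular to the upstream members, and the share over all CHG regions in stretches was not computed. On 5D, a stretch of 15.6 kb (432324399 to 432339962) had 8 of 8 listed regions lower, among them the upstream regions of TraesCS5D02G344900 and TraesCS5D02G345100 at -19.2 and -24.2 points. On 7B, all 11 regions of a stretch of 11.1 kb around TraesCS7B02G396200 (663092128 to 663103245) were lower. Outside stretches 194 of 271 members were lower, 71.6% (65.8 to 76.9), and without stretches and organelle names 189 of 266, 71.1%.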

How the data were processed

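DNA of seedlings was converted enzymatically before sequencing, per the labels' protocols; titles read WGBS. The authors deposited a single percent value per region and library (methylated share), per the column headers. The name the authors gave the list holds Chi and EdgeR. Chi is read here as a chi-square test, which the name does not spell out. Per the submitters' processing notes, the tools were Bismark 0.23.1, Trim Galore 0.6.7, FastQC 0.11.9 and edgeR, without roles. Not given in the sources used here were the build, the region definition, thresholds and coverage. The deposited distance to the gene, in bp, and the gene descriptions were used as given; 0 of 328 gene identifiers matched the reference gene table. Replicate 1 of each group was analysed; other libraries were not analysed here.

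Differences are ultrasound minus control. Shares have exact binomial (Clopper-Pearson) intervals, medians order-statistic intervals, and differences of shares Newcombe intervals built from exact ones. In all 27 differences of shares were computed, without adjustment; 8 intervals excluded 0. Computations used Python 3.11.15, pandas 2.3.3 and scipy 1.17.1. Coverage of the intervals was tested on simulated independent regions, and the chaining of neighbours on a small example. In the data 9 of 9 neighbouring pairs of members within 10 kb shared their direction, which the simulation did not include. No test between groups was possible with 1 library each. Members and word lists were chosen with earlier results of these data known. Named genes were the 10 largest differences each way, described genes, the 5 nearest to the gene, the 5 largest also listed upstream in CpG or CHH, the 5 longest and the 5 at 0; stretch, same-gene, peroxidase and autophagy examples were chosen after their values were seen. Alternatives were minimum differences, each gene once, merged neighbours, other bounds, and sets without unplaced, long, zero, stretch or organelle regions.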

Additional observations from a re-analysis of the deposited data

How the results depend on the processing

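No paired analysis was possible because 1 library per group was analysed. Of 204 alternative values, 174 stayed within the 95% interval of the value reported. With a minimum difference of 10 points the share lower was 65.8% in all, 55.6% at 500 to 1500 bp, and the median difference -12.5 points in all, -13.2, -11.3 and -12.8 points from the nearest to the farthest distance class, and -13.2, -13.3 and -11.7 points in A, B and D. With a minimum of 25 points (43 members) the share lower was 41.9% in all (27.0 to 57.9). It was 50%, 31.8% and 53.3% by distance and 50%, 40% and 35.7% in A, B and D. The median was then 25.1 points in all, 0.347, 25.3 and -25.3 points by distance and -0.102, 25.3 and 25.3 points in A, B and D, so that it turned positive in all, in both distance classes up to 1500 bp and in B and D; values under 25 points are left out by construction, and these medians can fall in the gap between. The middle minus the farthest distance class was then -21.5 points, and upstream minus overlapping and downstream -21.9 and -13.1 points. At sizes of 15 and 20 points 55.0% and 46.5% were lower. The mean in place of the median was -4.11 points. Class bounds of 1000 and 2000 bp gave 2.96 points for the nearest minus the middle class; the cause was not tested. The share at least 25 points higher, upstream minus overlapping, was 5.48 to 6.37 points in the 6 alternatives run, which were added after the data were seen, with every interval above 0. Depth behind the levels is unknown.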

Other observations

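Members listed at 0% were unevenly placed. Among members with both levels, 8 were listed at 0% in the ultrasound library and 1 in the control library. Of the 8, 4 lay on 5A, which holds 13 of the 292 members with levels, and 2 on 5B. In all of CHG, 36 regions were listed at 0% in the ultrasound library, 9 of them on 5A, and 17 in the control library, none of them on 5A, where 73 of 1557 regions with levels lie. The 5 with the highest control level were TraesCS5B02G036900 at 25.7%, TraesCS5A02G493000 at 15.9%, TraesCS7A02G553800 at 13.9%, TraesCS5A02G250500 at 9.59% and TraesCS5B02G454700 at 9.56%. The pattern was noticed in the levels and was not tested.

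The 5 longest members with both levels were also mostly lower. TraesCS2D02G068200 (6545 bp) was at 18.2% after ultrasound and 29.9% in the control, and TraesCSU02G270600 (5468 bp) at 41.9% and 53.9%. TraesCS5A02G250500 (5006 bp) and TraesCS5B02G036900 (3857 bp) were listed at 0% after ultrasound, with the control levels given above. TraesCS7B02G379200 (3877 bp) was higher, at 28.1% after ultrasound and 2.62% in the control.

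Levels given in only 1 library could not enter a comparison. They were 0% to 67.8% (median 23.3%) at 18 members with only an ultrasound level, and 6.43% to 65.3% (median 39.2%) at 7 members with only a control level.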
